A study of Mus musculus with 3 samples.

Results

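The gap junction connexin genes Gja1, Gjb2, Gjb5 and Gjb6 were followed through the fusion of the mouse secondary palate. Their probe sets were taken by gene symbol from the platform annotation, which gave 7 of 12422 non-control probe sets and 4 of 8251 genes. Gja1 had 2 probe sets, Gjb2 and Gjb5 had 1 each and Gjb6 had 3. The tissue was medial edge epithelium, the cells covering the tip of each palatal shelf, from embryos of the CF-1 mouse stock at ED13.5, with no mutation or drug named in the labels. The 3 arrays held unfused, uncultured epithelium (0 h), fused epithelium from shelves kept together in culture until 12 h after contact, and fused epithelium at 24 h, which the labels describe as in epithelial-mesenchymal transformation. Each time point had 1 array, so no value below has an error, a replicate check or a p-value. Fusion and time in culture cannot be told apart, because both fused samples were cultured and the unfused one was not. The epithelium was freed with Dispase II, and the sources used here do not give the number of embryos per sample.

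Connexins are 4-pass membrane proteins. A ring of them forms a hemichannel, and hemichannels of neighbouring cells dock into a gap junction channel that passes ions and small metabolites between the cells. Gja1 encodes Cx43, the most widely made connexin, which is found in epithelia and also in mesenchyme, osteoblasts and heart. Gjb2 encodes Cx26 and Gjb6 encodes Cx30, which share channels in skin and in the inner ear, and mutations in either cause deafness and skin disease in humans. Gjb5 encodes a further connexin of stratified epithelia. Connexin proteins turn over within hours, so their transcript level is 1 of several steps that set the number of channels, together with trafficking, phosphorylation and degradation.

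The sequences before the transcription starts are shown for the 3 genes that gave a ratio, because Gja1 and Gjb2 went the same way at each step and Gjb5 the opposite way. Each is the RefSeq window on GRCm38.p6 of 250 bases before and 50 after the start, 5′ to 3′ on the gene's strand. The windows are chr10:56377050-56377349 on the plus strand for Gja1, chr14:57104653-57104952 on the minus strand for Gjb2 and chr4:127358115-127358414 on the minus strand for Gjb5. Capitals mark every match, on either strand, to TGACTCA (the AP-1 site), GGGCGG (the GC box), TATAAA (the TATA box) or CAGGTG (an E-box bound by Snail factors). No 2 matches overlapped.
Gja1: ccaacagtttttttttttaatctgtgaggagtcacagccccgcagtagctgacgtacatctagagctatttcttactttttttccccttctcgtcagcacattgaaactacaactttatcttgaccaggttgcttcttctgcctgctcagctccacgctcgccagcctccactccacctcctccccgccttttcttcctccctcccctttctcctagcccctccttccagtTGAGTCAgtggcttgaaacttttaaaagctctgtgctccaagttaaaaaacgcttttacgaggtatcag
Gjb2: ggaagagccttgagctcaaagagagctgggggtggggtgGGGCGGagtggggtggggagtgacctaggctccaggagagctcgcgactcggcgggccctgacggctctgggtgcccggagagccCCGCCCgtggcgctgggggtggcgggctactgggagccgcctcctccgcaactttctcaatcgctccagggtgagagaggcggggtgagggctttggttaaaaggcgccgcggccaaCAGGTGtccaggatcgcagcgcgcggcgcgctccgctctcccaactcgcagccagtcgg
Gjb5: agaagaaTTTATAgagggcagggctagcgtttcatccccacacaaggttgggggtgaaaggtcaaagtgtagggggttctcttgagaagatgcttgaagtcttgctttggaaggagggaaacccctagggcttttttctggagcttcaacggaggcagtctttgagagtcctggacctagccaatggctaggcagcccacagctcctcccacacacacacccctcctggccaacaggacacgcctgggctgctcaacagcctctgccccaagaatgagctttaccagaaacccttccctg

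The Gja1 window held 1 AP-1 site, 19 bases before the start, and none of the other motifs. The Gjb2 window held 2 GC boxes, 211 and 126 bases before the start, and 1 Snail E-box 9 bases before it. The Gjb5 window held 1 match to the TATA box letters, 243 bases before the start and on the opposite strand. The windows also differed in base composition, with a GC content of 47.7% for Gja1, 70.0% for Gjb2 and 54.3% for Gjb5. Over 27025 windows of the same length, 1 a gene, 5.17% held the AP-1 site, 35.9% the GC box, 14.2% the TATA box and 20.03% the E-box. The Gjb6 window held 1 E-box and none of the other 3 motifs. No motif was shared by Gja1 and Gjb2, and the matches are descriptions of letters, not of bound sites.

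The deposited values were linear signals, and the arrays differed in overall brightness, with 2% trimmed means of 93.7, 58.1 and 46.8 at 0, 12 and 24 h. They were scaled to a common trimmed mean by factors of 0.676, 1.09 and 1.36. A floor at a scaled signal of 13.5, the pooled 40th percentile, marks the level below which signals are not ordered here. A gene at the floor on 1 array has a bound, given as at least N-fold, and a gene at the floor on both has no ratio. Control transcripts for Gapdh gave 3′ to 5′ signal ratios of 0.828, 14.9 and 12.6 at 0, 12 and 24 h, and those for Actb gave 1.02, 11.9 and 2.97. Their part in the ratios below was not tested.

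Gja1 was bright on every array. Its main probe set had scaled signals of 613 at 0 h, then 3480 at 12 h and 1661 at 24 h. The signal was thus lowest before culture, highest soon after fusion and intermediate at 24 h. The second Gja1 probe set had scaled signals of 44.7 at 0 h, then 147 at 12 h and 32.4 at 24 h. It shared the peak at 12 h, but its lowest value was at 24 h. Both probe sets were designed on the same transcript accession, and the suffixes of both mark probes that may meet other transcripts or that relax the design rules.

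Gjb2 was low at both ends of the series. Its 1 probe set had scaled signals of 32.6 at 0 h, then 99.0 at 12 h and 25.2 at 24 h. All 3 values lay above the floor, and the 12 h array was the high one. Gjb5 showed the inverse. Its 1 probe set had scaled signals of 34.3 at 0 h, then 10.5 at 12 h and 39.3 at 24 h. The 12 h value was under the floor and the other two were above it, at similar levels.

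Gjb6 was not above the floor on any array by any of its 3 probe sets. The probe set of highest mean had scaled signals of 7.17, 6.76 and 2.30 at 0, 12 and 24 h. The second had 11.4, 1.96 and 1.63, and the third had 3.11, 3.82 and 3.796. Low signal on this platform does not show that the transcript was missing, and no ratio is given for Gjb6.

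**Figure D1:**
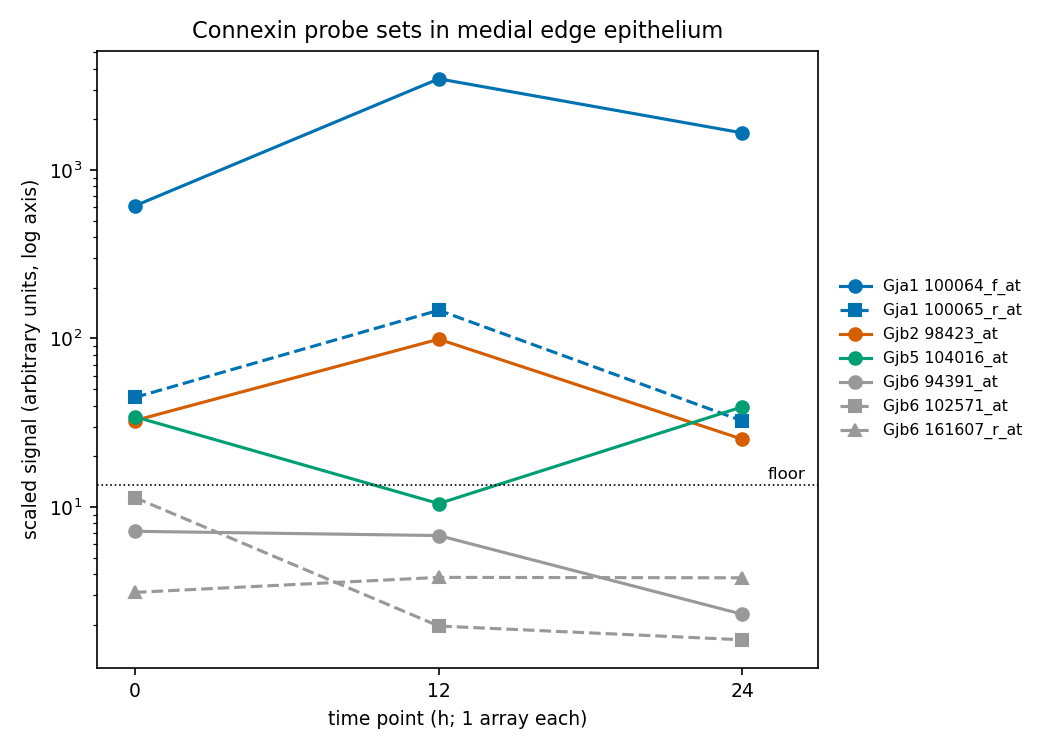
Scaled signal (log axis, arbitrary units) of the 7 connexin probe sets at 0, 12 and 24 h, with 1 array per time point and a dotted line at the floor of 13.5. Both Gja1 probe sets and Gjb2 have their highest point at 12 h, Gjb5 has its lowest there, at 10.5, and all Gjb6 points lie under the floor.

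The comparison of 12 h with 0 h set freshly fused, cultured epithelium against unfused tissue. Of the 4 connexin genes, 2 were higher by 2-fold or more at 12 h, 1 was lower by 2-fold or more and 1 had no ratio. Over all genes with a ratio, 17.7% were higher by 2-fold or more and 27.3% lower by 2-fold or more. Gja1 had scaled signals of 3480 at 12 h and 613 at 0 h, which is 5.67-fold higher (log2 ratio 2.50). The second Gja1 probe set was 3.29-fold higher at 12 h (log2 ratio 1.72). Gjb2 had scaled signals of 99.0 at 12 h and 32.6 at 0 h, which is 3.04-fold higher (log2 ratio 1.60). Gjb5 was at the floor at 12 h, against 34.3 at 0 h, which is at least 2.53-fold lower.

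The yardstick available for these ratios was the disagreement between probe sets of 1 gene. The SD of a probe set's log2 ratio about the mean of its gene was 1.24 for this comparison, over 672 genes. The Gja1 ratio was barely larger than 2 such SDs, those of Gjb2 and of the second Gja1 probe set were between 1 and 2, and the bound of Gjb5 was a little over 1. As deposited the Gja1 log2 ratio was 1.81, and after quantile normalization 2.19. The SD was not computed on those scales. This SD also holds real differences between transcripts and is not a replicate error.

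The comparison of 24 h with 12 h asked how the transforming seam differed from freshly fused epithelium, both from culture. Here 1 connexin gene was higher by 2-fold or more at 24 h, 2 were lower by 2-fold or more and 1 had no ratio. The shares over all genes with a ratio were 18.8% higher and 12.0% lower. Gjb2 had scaled signals of 25.2 at 24 h and 99.0 at 12 h, which is 3.93-fold lower (log2 ratio -1.97). Gja1 had 1661 at 24 h and 3480 at 12 h, which is 2.10-fold lower (log2 ratio -1.07), and its second probe set was 4.54-fold lower (log2 ratio -2.18). Gjb5 had 39.3 at 24 h against a 12 h value at the floor, which is at least 2.91-fold higher. The SD between probe sets of a gene was 0.82 for this comparison, over 687 genes, so the Gja1 ratio was between 1 and 2 of these SDs and the Gjb2 ratio over 2.

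The comparison of 24 h with 0 h set the transforming seam against unfused tissue. By its main probe set Gja1 was the 1 connexin gene higher by 2-fold or more at 24 h, none was lower by 2-fold or more, 2 were within 2-fold and Gjb6 had no ratio. Over all genes with a ratio, 14.5% were higher by 2-fold or more and 17.7% lower by 2-fold or more. Gja1 had scaled signals of 1661 at 24 h and 613 at 0 h, which is 2.71-fold higher (log2 ratio 1.44). Its second probe set had 32.4 at 24 h and 44.7 at 0 h, a log2 ratio of -0.46, so the 2 probe sets of Gja1 gave opposite signs for this interval. The SD between probe sets of a gene was 1.07 here, over 748 genes, so the main Gja1 ratio was between 1 and 2 of these SDs and the second was under 1. Gjb2 had 25.2 at 24 h and 32.6 at 0 h (log2 ratio -0.37). Gjb5 had 39.3 at 24 h and 34.3 at 0 h (log2 ratio 0.20). Both ratios were smaller than the SD between probe sets.

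**Figure D2:**
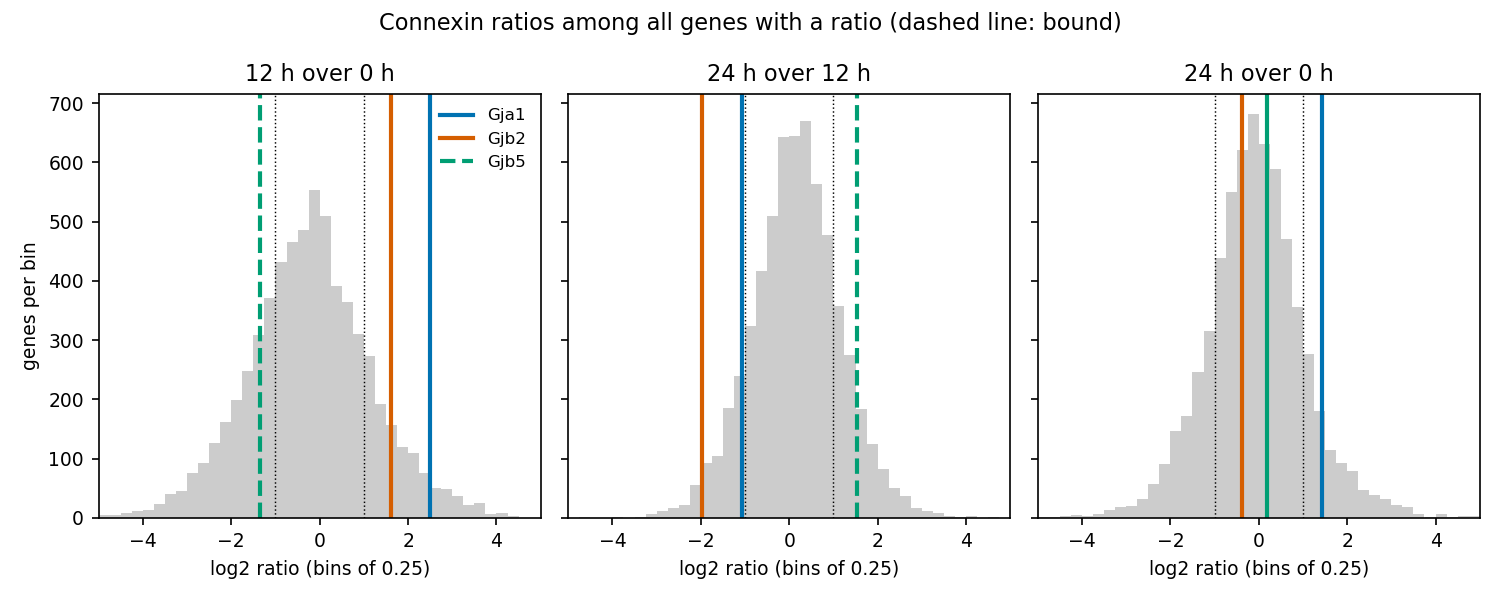
Number of genes per bin of log2 ratio (grey bars, all genes with a ratio) in the 3 comparisons, with vertical lines for Gja1, Gjb2 and Gjb5, dashed where the value is a bound, and dotted lines at 2-fold. Gja1 and Gjb2 lie right of the upper dotted line for 12 h over 0 h and left of the lower one for 24 h over 12 h, and Gjb5 lies on the opposite side in both.

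Which ratios count as 2-fold depended in part on how the arrays were brought to a common scale. For 12 h over 0 h the log2 ratios of all genes had a median of -0.21, against -0.83 for signals left as deposited. For 24 h over 12 h these medians were 0.17 and -0.12, and for the whole interval of 24 h over 0 h they were -0.08 and -0.98. Of all genes 2-fold different at 12 h from 0 h, 39.3% were higher, against 16.8% without scaling, 58.7% with medians aligned and 51.2% with quantiles aligned. For 24 h over 12 h that share was 61.1%, against 39.4%, 42.1% and 50.8%, and for 24 h over 0 h it was 45.0%, against 8.36%, 55.5% and 51.1%.

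Measured against the median of all genes, the connexin ratios moved less between scalings than the plain ratios did. Apart from quantile normalization, the scalings differ by 1 factor per array, which subtracting the median largely cancels. The smaller movement thus follows largely from the method and is no sign of stable connexin ratios. For 12 h over 0 h, Gja1 lay 2.13 to 2.77 log2 units above that median over the 4 scalings, its second probe set 1.86 to 1.99 above it and Gjb2 1.74 to 1.87 above it. For 24 h over 12 h, values relative to the median ran from -1.26 to -0.85 for Gja1, from -2.38 to -2.25 for its second probe set and from -2.17 to -2.12 for Gjb2. The bound of Gjb5 ran from -1.31 to -1.10 for 12 h over 0 h and from 1.24 to 1.59 for 24 h over 12 h, on the same relative scale. For 24 h over 0 h the relative value was 1.32 to 1.52 for Gja1, -0.49 to -0.31 for its second probe set, -0.39 to -0.22 for Gjb2 and 0.17 to 0.35 for Gjb5. The log2 ratio of Gjb5 itself changed sign for that interval, from 0.20 after scaling to -0.81 as deposited.

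**Figure D3:**
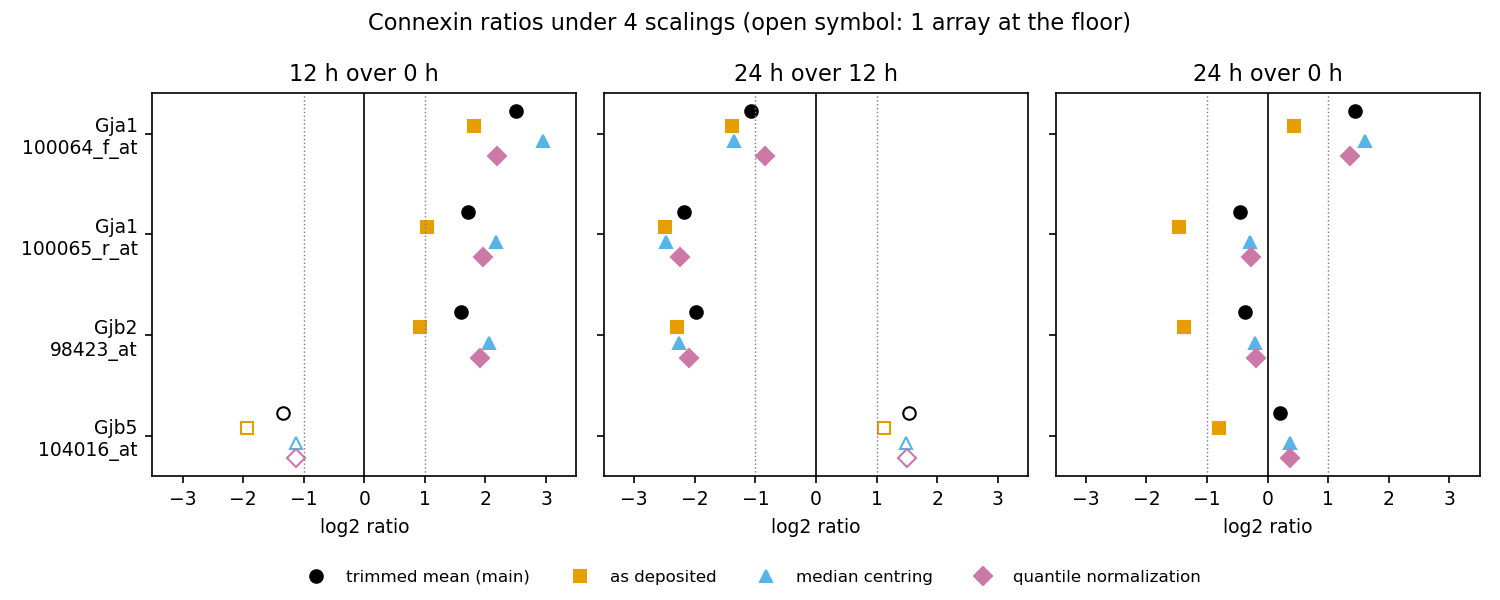
Log2 ratio of both Gja1 probe sets, Gjb2 and Gjb5 in the 3 comparisons under 4 scalings of the arrays, with dotted lines at 2-fold and open symbols where 1 array is at the floor. Each probe set keeps its side of 0 under all 4 scalings except Gjb5 for 24 h over 0 h, and the 2 Gja1 probe sets stand on opposite sides of 0 for that interval.

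The other connexin genes on the array added little signal. Of 19 further connexin and pannexin genes looked for, 7 had a probe set, and 2 of these were above the floor on any array. Gja5, a connexin of arterial endothelium and the cardiac conduction system, had scaled signals of 44.4 at 0 h, then 12.4 at 12 h and 6.10 at 24 h. It was at least 3.28-fold lower both at 12 h and at 24 h relative to 0 h. Gjc1, which encodes a connexin of early heart and vascular muscle, had 32.4, 2.40 and 2.71 at 0, 12 and 24 h. Its signal was at least 2.39-fold lower at both later times than at 0 h. The suffix of its 1 probe set marks possible cross-hybridization or relaxed design. The 24 h and 12 h arrays were both at the floor for these 2 genes, so no ratio exists between them. Relative to 0 h, 27.3% of all genes were lower by 2-fold or more at 12 h and 17.7% at 24 h.

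Gja3, Gja4, Gja10, Gjb1 and Gjd2 stayed under the floor on all 3 arrays, the highest among them being Gjb1, a connexin of liver and Schwann cells, at 9.90 at 24 h. In the RefSeq gene order Gja3, Gjb2 and Gjb6 are adjacent on chromosome 14. Of these 3 neighbours, only Gjb2 gave signals above the floor.

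Membrane and scaffold partners of connexins included genes with the Gja1 pattern and genes without it. At 12 h, 4 of 10 were higher by 2-fold or more than at 0 h and 1 lower by 2-fold or more, with a median log2 ratio of 0.96 against -0.21 over all genes, of which 17.7% were higher and 27.3% lower. With signals as deposited 2 were higher and 3 lower, with a median of 0.31. On that scale 9.06% of all genes were higher and 44.8% lower, with a median of -0.83. Tjp1, which encodes ZO-1, the scaffold that binds the tail of the Gja1 protein, had 122, 827 and 535 at 0, 12 and 24 h. It was 6.76-fold higher at 12 h relative to 0 h, and its log2 ratio for 24 h over 12 h was -0.63. The other Tjp1 probe set was under the floor on all arrays. Cav1, the caveolar coat protein caveolin, had 45.7, 290 and 92.3, a 6.35-fold higher signal at 12 h relative to 0 h and a 3.15-fold lower one at 24 h relative to 12 h. By the other Cav1 probe set these log2 ratios were 0.06 and 0.77. Ctnnb1, the adherens junction protein beta-catenin, had 1440, 3480 and 1347, and was 2.42-fold higher at 12 h relative to 0 h and 2.58-fold lower at 24 h relative to 12 h.

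Ezr, a linker of membrane proteins to actin, differed from Gja1 in being highest at 24 h, with 77.0, 161 and 431 at 0, 12 and 24 h. Dbn1, the actin-binding protein drebrin, which holds Cx43 at the membrane, was above the floor at 0 h alone, at 31.6. Cdh2, the neural cadherin of mesenchyme, had 76.1, 52.8 and 20.2 and was 2.61-fold lower at 24 h relative to 12 h. At 24 h, 1 of 9 partners with a ratio was higher by 2-fold or more than at 12 h and 3 lower by 2-fold or more (median -0.66). Against 0 h, 4 of 10 were higher by 2-fold or more at 24 h and 2 lower by 2-fold or more (median 0.25, and -0.77 with values as deposited). Among all genes 18.8% were higher and 12.0% lower for 24 h over 12 h (median 0.17). For 24 h over 0 h these shares were 14.5% and 17.7% (median -0.08, and -0.98 as deposited). The 2 of 10 partners lower in that interval were thus near the share of all genes.

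Kinases that phosphorylate connexins differed in pattern. At 12 h, 2 of 9 were higher by 2-fold or more than at 0 h and 5 lower by 2-fold or more (median -1.12), while signals as deposited gave 7 lower and median centring 3. The share of kinases that were higher was near the 17.7% of all genes, and 27.3% of all genes were lower. On the deposited scale 44.8% of all genes were lower, with a median of -0.83, and with median centring 18.4% were. Prkca, a protein kinase C that lowers coupling through Cx43, had 13.0 at 0 h, under the floor, 109 at 12 h and 136 at 24 h. Relative to 0 h it was at least 8.03-fold higher at 12 h, a bound that reached 10.1-fold for 24 h. Prkce, a second protein kinase C, had 5.48, 67.3 and 61.3, and its other probe set was under the floor on all arrays.

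Akt1, a kinase of survival signalling that also acts on Cx43, had 302, 18.4 and 104 at 0, 12 and 24 h. It was 16.4-fold lower at 12 h relative to 0 h and 5.65-fold higher at 24 h relative to 12 h. Mapk7 was at least 6.66-fold lower at 12 h relative to 0 h, with 90.1 at 0 h and signals under the floor later. Src, the tyrosine kinase that reduces Cx43 coupling, had 29.8 at 0 h and was under the floor at 12 h and 24 h. Prkaca, the catalytic subunit of protein kinase A, had 130.4, 34.7 and 86.9, a 3.76-fold lower signal at 12 h relative to 0 h and a 2.51-fold higher one at 24 h relative to 12 h. At 24 h, 3 of 7 kinases were higher by 2-fold or more than at 12 h and 0 lower by 2-fold or more (median 0.94), and against 0 h 2 of 9 were higher by 2-fold or more and 3 lower by 2-fold or more (median -0.46). The shares over all genes were 18.8% higher and 12.0% lower for 24 h over 12 h, and 14.5% and 17.7% for 24 h over 0 h. For that last interval signals as deposited gave 6 lower, with a median of -1.46. On that scale 49.3% of all genes were lower, with a median of -0.98.

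Of the genes of connexin folding and turnover, 2 of 3 with a ratio were lower by 2-fold or more at 12 h, the time of the Gja1 peak, relative to 0 h, and 0 were higher (median -1.31), where 27.3% of all genes were lower. Signals as deposited gave 3 of 4 lower (median -1.62) and median centring 1 of 4 (median -0.48). On these scales 44.8% (median -0.83) and 18.4% (median 0.18) of all genes were lower. Erp29, an endoplasmic reticulum protein that keeps Cx43 monomeric before assembly, had 160, 48.4 and 228 at 0, 12 and 24 h, which is 3.30-fold lower at 12 h relative to 0 h and 4.72-fold higher at 24 h relative to 12 h. By the other Erp29 probe set, under the floor at 12 h, the bound on that log2 ratio for 12 h over 0 h was -0.27. Nedd4, a ubiquitin ligase that targets Cx43, had 641, 258 and 479, which is 2.48-fold lower at 12 h relative to 0 h, and -0.15 on the log2 scale by its other probe set. At 24 h, 1 of 3 was higher by 2-fold or more relative to 12 h and 0 were lower (median 0.89). The shares over all genes were 18.8% higher and 12.0% lower. Against 0 h, 0 of 3 differed 2-fold (median 0.14, but -0.72 as deposited and -0.04 after quantile normalization). Among all genes 14.5% were higher and 17.7% lower (median -0.08, -0.98 as deposited and 0.03 after quantile normalization).

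Transcription factors that act on connexin genes or on stratified epithelium had 1 of 8 members higher by 2-fold or more at 12 h relative to 0 h and 2 lower by 2-fold or more (median 0.07, and -0.62 as deposited). These counts were near the shares over all genes, 17.7% higher and 27.3% lower, and are no result about the factors. The median of all genes was -0.21, and -0.83 as deposited. Trp63, the regulator of stratified epithelia, had 75.9, 230 and 67.4 at 0, 12 and 24 h, a 3.03-fold higher signal at 12 h relative to 0 h and a 3.41-fold lower one at 24 h relative to 12 h. Its log2 ratios of 1.60 and -1.77 lay near those of Gjb2. Tbx2, a repressor of Gja1, had 147 at 0 h, was under the floor at 12 h and had 22.1 at 24 h. It was at least 10.8-fold lower at 12 h relative to 0 h, and by a second Tbx2 probe set the log2 ratio was -1.06.

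The 2 AP-1 genes examined differed. Jun had 389, 127 and 106 at 0, 12 and 24 h and was 3.06-fold lower at 12 h relative to 0 h. Fos had 1969, 3119 and 1290, a log2 ratio of 0.66 for 12 h over 0 h (-0.03 as deposited), and was 2.42-fold lower at 24 h relative to 12 h, while its other probe set gave a bound of -0.46 on the log2 scale there. Sp3, a factor that binds GC boxes, had 244, 286 and 64.1 and was 4.46-fold lower at 24 h relative to 12 h. Of the 8 factors, 0 were higher by 2-fold or more and 3 lower by 2-fold or more at 24 h relative to 12 h (median -0.13), and 1 was higher and 3 were lower at 24 h relative to 0 h (median -0.71). Among all genes 18.8% were higher and 12.0% lower in the first of these comparisons (median 0.17), and 14.5% and 17.7% in the second (median -0.08). The 1 of 8 factors higher at 24 h relative to 0 h was near the share of all genes and is no result about the factors. Signals as deposited gave 0 higher and 6 lower for 24 h over 0 h (median -1.71). On that scale 4.50% of all genes were higher and 49.3% lower (median -0.98).

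**Figure D4:**
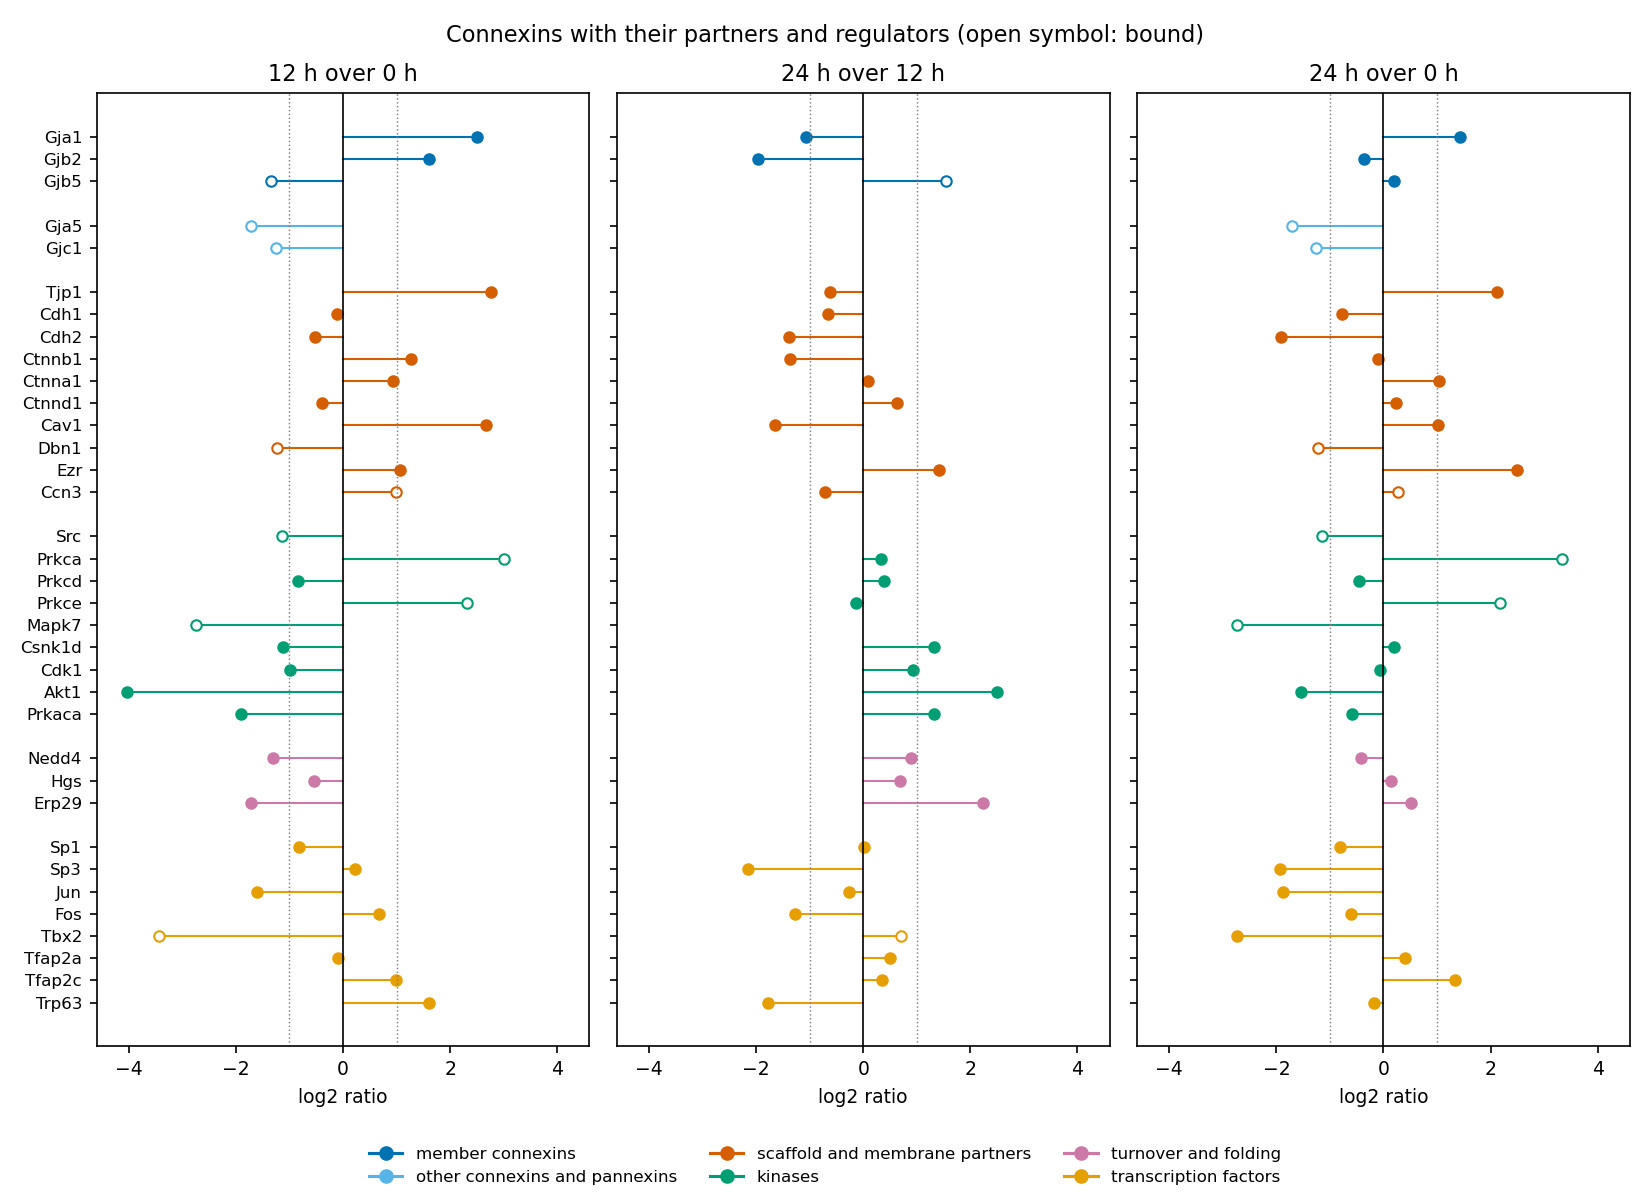
Log2 ratio of each connexin, connexin partner and regulator that has a ratio, in the 3 comparisons, with dotted lines at 2-fold and open symbols for bounds. Tjp1, Cav1, Ctnnb1 and Trp63 lie on the side of Gja1 and Gjb2 for 12 h over 0 h, and Akt1, Mapk7, Erp29 and Nedd4 lie on the side of Gjb5.

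The genes most like Gja1 and Gjb2 were sought among 4681 others above the floor on all 3 arrays, by Euclidean distance over the log2 ratios for 12 h over 0 h and 24 h over 12 h. Nearest to Gja1 were Oat, a mitochondrial aminotransferase of ornithine (distance 0.07), Sptssa, a small subunit of the enzyme that starts sphingolipid synthesis (0.09), and the growth factor gene Tgfb2 (0.10). Tgfb2 had scaled signals of 21.4, 127 and 57.5 at 0, 12 and 24 h. Nearest to Gjb2 were Eprs, a tRNA synthetase (0.05), Atp6v1g1, a subunit of the proton pump of lysosomes (0.07), and Phlda1 (0.07). Phlda1 had 36.7, 116 and 30.4. In all, 14 genes lay within a distance of 0.25 of Gja1 and 16 within that distance of Gjb2. The likeness rests on 3 arrays and, for Gja1, on its main probe set. The second Gja1 probe set, with log2 ratios of 1.72 and -2.18, was not used for it. All the distances given are smaller than the SDs between probe sets of a gene, 1.24 and 0.82 for these 2 ratios. Gjb5 did not enter because its 12 h signal was under the floor.

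The cell types that could carry connexin transcripts also differed between the arrays. In bulk samples fewer cells of a type and less RNA per cell cannot be told apart. Of 10 epithelial markers, 8 were above the floor at every time point, and their summed scaled signal over all 10 was 908, 1585 and 1527 at 0, 12 and 24 h. The basal keratins Krt5 and Krt14 were under the floor on all 3 arrays, while Cdh1, the epithelial cadherin, had 112, 104 and 65.7. Epcam, an epithelial adhesion molecule, had 38.7, 265 and 77.1, with its highest signal on the same array as Gja1 and Gjb2. Perp and Trp63 were, like Epcam, higher by 2-fold or more at 12 h relative to 0 h. The keratin gene Krt17 and the integrin gene Itgb4 were 3.12-fold and 2.42-fold lower there. Of 8 epithelial markers with a ratio, 3 were thus higher and 2 lower (median -0.06), beside 17.7% and 27.3% of all genes. Signals as deposited gave 2 higher and 3 lower, beside 9.06% and 44.8% of all genes. At 24 h relative to 12 h, 3 of 8 epithelial markers were higher by 2-fold or more (Krt8, Krt18 and Krt17). There 3 were lower by 2-fold or more (Epcam, Trp63 and Perp), beside 18.8% higher and 12.0% lower among all genes. Of 10 markers of periderm and differentiating keratinocytes, 8, 8 and 7 were above the floor, summing to 760, 3901 and 2683. At 12 h, 5 of 9 of these with a ratio were higher by 2-fold or more than at 0 h and 1 lower by 2-fold or more, beside 17.7% and 27.3% of all genes. Median centring gave 7 higher, where 26.2% of all genes were higher. Signals as deposited gave 5 higher and 2 lower, where 9.06% and 44.8% of all genes were. By other probe sets the log2 ratio for 12 h over 0 h was -1.18 for Krt6a and 0.18 for Pkp1. For Anxa1 other probe sets gave 1.25 and 2.22, and the other Krt10 probe set was under the floor. Anxa1 alone made up 276, 2643 and 794 of the summed signal of this group at 0, 12 and 24 h. The 12 h peak of the sum thus rests largely on Anxa1. Krt10 and Scel were also highest at 12 h, whereas Krt6a, Krt4, Pkp1 and Lor were highest at 24 h and Krt1 and Sfn at 0 h.

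Palate mesenchyme, a known source of Gja1, was represented by 11 markers, of which 11, 9 and 10 were above the floor at 0, 12 and 24 h. Their summed signal was 4123, 6655 and 7920, with 4 of 11 higher by 2-fold or more and 5 lower by 2-fold or more at 12 h relative to 0 h, and 4 of 10 higher and 0 lower at 24 h relative to 12 h. Over all genes 17.7% were higher and 27.3% lower in the first of these comparisons, and 18.8% and 12.0% in the second. With signals as deposited 2 of 11 mesenchyme markers were higher at 12 h relative to 0 h, beside 9.06% of all genes. Of 6 endothelial markers, 5, 6 and 5 were above the floor and the sum was 267, 511 and 535. Cdh5 made up 51.7, 263 and 160 of it. At 12 h, 2 of 6 were higher by 2-fold or more than at 0 h and 0 lower (median 0.34). Signals as deposited gave 1 higher and 1 lower (median -0.26), beside 9.06% and 44.8% of all genes. Eng had a log2 ratio of -0.49, and the 2 probe sets of Tie1 gave 0.53 and -1.07. Gja5 was highest at 0 h. Of 2 osteoblast markers on the array, 1, 1 and 2 were above the floor. Ibsp, a bone sialoprotein, had 9.60, 681 and 264 by its main probe set, but its other probe set had 26.6, 0.65 and 27.5.

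Of 8 macrophage markers, 5 were above the floor at each time point, with sums of 236, 663 and 610. The protease gene Ctss made up 42.0, 508 and 278 of these sums, and Adgre1 and Lyz2 were under the floor throughout. Of 5 erythroid markers, 5, 4 and 5 were above the floor, with sums of 6458, 1575 and 1496. The part of these other cell types in the connexin values was not tested.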

How the data were processed

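RNA from medial edge epithelium was measured on 3 Affymetrix arrays of 1 colour, 1 each at 0, 12 and 24 h. Per the labels' protocols, RNA was amplified with the RiboAmp kit, labelled with the ENZO kit and analysed by the submitters with Microarray Suite 5.0 and GeneSpring 6.0. The sources used here do not give which program wrote the values. The deposited values are linear signal intensities per probe set, without detection calls, and per the labels no scaling is stated.

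Of 12488 probe sets, 66 are controls and 10833 name 1 gene. Symbols came from the platform annotation, updated by gene identifier through RefSeq. Arrays were multiplied to share 1 trimmed mean (2% off each end), floored at the 40th percentile and taken to log2. The probe set of highest mean signal represents a gene. A probe set's suffix (_f, _r) marks possible cross-hybridization or relaxed design. A time point has 1 array, which allows no test, so a 2-fold rule of size was used. Precision is limited by the number of arrays. The spread between probe sets was computed from genes with several of them above the floor on both arrays. The calculation was tested on simulated data. Python 3.11.15, numpy 2.4.6 and pandas 2.3.3 were used.

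Genes named were the 4 connexins, the other connexin and pannexin genes above the floor, up to 4 of each partner group with the largest ratios in each comparison, and the 3 nearest genes by pattern. Src, the connexins under the floor and the named cell type markers fall outside this rule and were chosen after their values were seen. The members and lists were chosen with earlier results of these data known. Alternatives were other scalings, floors, probe set rules and a 3-fold rule, and the second Gja1 probe set was added after seeing the data.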

Additional observations from a re-analysis of the deposited data

How the results depend on the processing

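No paired analysis was possible because each time point has 1 array. For 12 h over 0 h, 2 connexin genes were at least 2-fold higher, against 1 with values as deposited and 1 without probe sets of possible cross-hybridization, which leaves out Gja1. The count at least 2-fold lower, 1, became 0 with a floor at the 60th percentile and 0 by a 3-fold rule. For 24 h over 12 h, the count higher, 1, became 0 with the 60th percentile floor and 0 by the 3-fold rule, and the count lower, 2, became 1 after quantile normalization, 1 without cross-hybridizing probe sets and 1 by the 3-fold rule, and 3 without a floor. For 24 h over 0 h, the count higher, 1, became 0 with values as deposited, 0 with the mean over probe sets, 0 without cross-hybridizing probe sets, 0 by the 3-fold rule and 0 with the other Gja1 probe set, an alternative added after seeing the data. The count lower, 0, became 1 with values as deposited (Gjb2) and 1 without a floor (Gjb6). The log2 ratio of Gja1 for 24 h over 0 h reversed to -0.46 with its other probe set, and the mean over both gave 0.49. Apart from the settings that leave a gene out or only restate its value, Gja1 and Gjb2 stayed positive for 12 h over 0 h and negative for 24 h over 12 h. Whether a gene was counted rested on its distance from the 2-fold limit, since the ratio of Gja1 for 24 h over 12 h ran from -1.07 to -0.84 between scaling to the trimmed mean and quantile normalization. Gjb5 and Gjb6 are limited by signals at or under the floor.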
